A study of Mus musculus with 6 samples.

Results

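The granin family is represented here by 6 genes, Chga, Chgb, Scg2, Scg3, Scg5 and Vgf, taken by gene name alone from a table of 54556 genes. All 6 had a row in the table and all 6 passed the filter on low values, a mean of at least 1 FPKM (fragments per kilobase of gene and unit of library size). RNA was sequenced from whole pancreatic islets of C57BL/6 mice aged 8 weeks and kept on normal chow. There were 3 libraries labelled β-Mettl3-KO, from mice with floxed Mettl3 alleles and RIP-Cre (Cre recombinase under a rat insulin promoter), and 3 from Mettl3 flox/flox mice that carry the same alleles without Cre. Mettl3 is the catalytic subunit of the enzyme that writes N6-methyladenosine on mRNA, and the comparison asks what changes in islets when it is deleted in β cells. No group with Cre alone was analysed here, so Cre and deletion cannot be told apart, and whether mice were pooled for a library is not stated.

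Granins are acidic proteins that fill the dense-core granules of endocrine cells and neurons. Chromogranins and secretogranins aggregate in the trans-Golgi network, where hormone precursors are packed into budding granules, and several are themselves cut at pairs of basic residues into peptides that are released with the hormone. In islets they are made by β cells and by the other endocrine cells, and Chga and Chgb are used as general markers of endocrine tissue.

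Libraries held 16719393 to 18387313 reads in the libraries labelled β-Mettl3-KO and 16398862 to 17691055 in flox/flox libraries. Reads on Mettl3 numbered 430, 417 and 437 in the libraries labelled β-Mettl3-KO, against 263, 212 and 296 in the flox/flox libraries, and the difference did not pass the test (log2 difference 0.25 ± 0.11 SE, limma adjusted p = 0.12). Reads summed over a whole gene in mixed islet cells do not check the genotype, so directions are those of the labels. The defining islet hormones were abundant in every library. Ins1 and Ins2 together summed to 106192, 98527 and 99311 FPKM in libraries labelled β-Mettl3-KO, against 299402, 238281 and 266162 FPKM in flox/flox libraries. Markers of other cells also differed. A list of 15 enterocyte markers came to 489, 2129 and 1188 CPM (reads relative to the library total) in replicates 1, 2 and 3 labelled β-Mettl3-KO, against 157 to 182 CPM in flox/flox libraries. Anpep and Vil1 had the most reads of that list in every library, and Alpi, intestinal alkaline phosphatase, was at 8.13, 76.8 and 36.3 FPKM in libraries labelled β-Mettl3-KO and at 0 in flox/flox libraries. A list of 14 lymphocyte markers came to 1710.1, 2899 and 2193 CPM against 20.4 to 41.7 CPM.

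All 6 granins stood higher in every library labelled β-Mettl3-KO than in any flox/flox library, and 5 of the 6 passed the test. Over all 14497 tested genes, 16.9% passed as higher, 17.2% as lower and 34.0% in either direction, and for 25.1% every labelled-knockout library lay above every flox/flox library. The log2 differences of the granins (β-Mettl3-KO minus flox/flox) ran from 0.31 to 1.46 with a median of 0.91, beside a median of 0.00 over all tested genes (-0.0045 unrounded). Vgf differed most, Chgb and Scg5 came next with almost equal differences, Scg2 and Scg3 followed, and Chga differed least. Quantile normalization changed that order, with log2 differences of 1.23 for Chga, 1.03 for Scg2 and 0.34 for Scg3, so that Scg3 differed least. The test was limma on log2(FPKM + 0.5), and adjusted p-values cover all tested genes. Fewer cells of a type and less RNA per cell cannot be told apart in bulk islets.

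**Figure D1:**
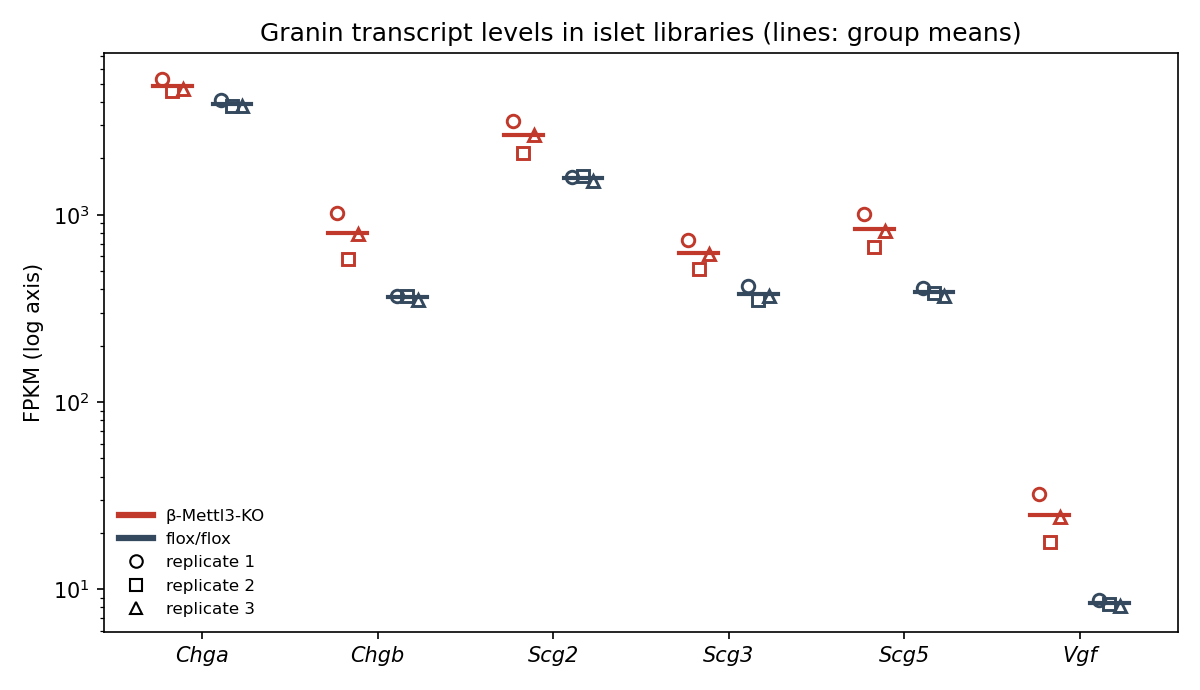
FPKM of each granin gene on a log axis, with 1 symbol per library and a line at each group mean (n = 3 libraries per group). Labelled-knockout values lie above flox/flox values for all 6 genes, and within the labelled-knockout group replicate 1 is highest and replicate 2 lowest each time.

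Chga encodes chromogranin A, the precursor of pancreastatin, vasostatin and catestatin, and was the most abundant granin. The gene, ENSMUSG00000021194, lies on the plus strand of chromosome 12 from 102554969 to 102565028 (GRCm38). It measured 5285, 4596 and 4675 FPKM in labelled-knockout replicates 1, 2 and 3, against 4123, 3817 and 3806 FPKM in flox/flox replicates 1, 2 and 3. The groups did not overlap, but the lowest labelled-knockout value was only 1.11 times the highest flox/flox value. Means were 4852 ± 377 and 3915 ± 179.9 FPKM (SD, n = 3 each), and the log2 difference of 0.31 ± 0.13 (SE) did not pass (limma adjusted p = 0.117). Among all genes of a library Chga ranked 6 to 8 by FPKM in the libraries labelled β-Mettl3-KO and 13 in each flox/flox library. The difference passed in 4 of 18 alternatives, with reads scaled to each library's own total (adjusted p = 0.00225), quantile normalization (adjusted p = 0.000934), no variance trend (adjusted p = 0.0417) and scaling to pan-endocrine genes (adjusted p = 0.0285), within a range of adjusted p from 0.000934 to 0.837.

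Chgb encodes chromogranin B, a granule matrix protein with a high capacity for calcium. It lies on the plus strand of chromosome 2 from 132781278 to 132795079 (ENSMUSG00000027350). Its level was 1023, 578 and 791 FPKM in labelled-knockout replicates 1, 2 and 3, against 369.9, 369.0 and 352 FPKM in flox/flox replicates. The flox/flox libraries were nearly equal (coefficient of variation 2.73%), whereas the labelled-knockout libraries spread widely (27.9%). Group means were 797 ± 222 and 364 ± 9.94 FPKM (SD, n = 3 each), a 2.19-fold ratio. Chgb rose by 1.09 ± 0.20 on the log2 scale (SE, limma adjusted p = 0.00772).

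Scg2 encodes secretogranin II, the precursor of secretoneurin, and its gene (ENSMUSG00000050711, minus strand) spans 79434669 to 79440120 of chromosome 1. It was the second most abundant granin in all 6 libraries. Its values were 3148, 2145 and 2655 FPKM in the libraries labelled β-Mettl3-KO, against 1599.6, 1605 and 1509 FPKM in flox/flox libraries. The lowest labelled-knockout value was 1.34 times the highest flox/flox value. Scg2 averaged 2649.5 ± 502 and 1571 ± 53.7 FPKM (SD, n = 3 each), and rose by 0.74 ± 0.16 (SE, limma adjusted p = 0.0142). The call was lost without labelled-knockout replicate 3 (adjusted p = 0.0604) or flox/flox replicate 3 (adjusted p = 0.0579), and with no filter (adjusted p = 0.318), in a range of 0.00104 to 0.318 over alternatives, while the log2 differences in those 3 fits were 0.73, 0.71 and 0.74.

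Scg3 encodes secretogranin III, which binds cholesterol-rich granule membrane and holds chromogranin A there. The gene (ENSMUSG00000032181, minus strand) spans 75643189 to 75684056 of chromosome 9, and a predicted gene on the opposite strand inside it, Gm37871, had 38 reads over the 6 libraries. Scg3 was at 733, 512 and 619 FPKM in libraries labelled β-Mettl3-KO, against 417, 352 and 368 FPKM in flox/flox libraries. Replicate 1 was the highest library within each group. Means were 621 ± 111 and 379 ± 33.9 FPKM (SD, n = 3 each), with a rise of 0.70 ± 0.15 (SE, limma adjusted p = 0.0129). The call was lost without labelled-knockout replicate 3 (log2 difference 0.69, adjusted p = 0.0518) and with no filter (0.70, adjusted p = 0.0516), within 0.000877 to 0.157 over alternatives.

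Scg5 encodes a small granule protein that chaperones prohormone convertase 2, the product of Pcsk2, and whose C-terminal peptide inhibits that enzyme. The gene (ENSMUSG00000023236, minus strand) spans 113776362 to 113829121 of chromosome 2. Its level was 1009, 674 and 820.1 FPKM in labelled-knockout replicates 1, 2 and 3, against 407, 384 and 369.9 FPKM in flox/flox replicates. The lowest labelled-knockout library was 1.65 times the highest flox/flox library. Means were 834 ± 168 and 387 ± 19.0 FPKM (SD, n = 3 each), and Scg5 rose by 1.09 ± 0.15 (SE, limma adjusted p = 0.00296).

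Vgf encodes a neurotrophin-inducible granule protein that is cut into several bioactive peptides. It lies on the plus strand of chromosome 5 from 137026392 to 137033351 (ENSMUSG00000037428) and was by far the least abundant granin. It measured 32.3, 17.9 and 24.2 FPKM in libraries labelled β-Mettl3-KO, from 2001, 1040 and 1493 reads, against 8.71, 8.36 and 8.18 FPKM in flox/flox libraries, each from at least 359 reads. Every labelled-knockout library was at least 2.05 times the highest flox/flox library. Group means were 24.8 ± 7.22 and 8.42 ± 0.273 FPKM (SD, n = 3 each), a 2.95-fold ratio, and the rise of 1.46 ± 0.20 (SE, limma adjusted p = 0.00248) was larger than that of 96.1% of tested genes. Its rank among all genes was 1022 to 2113 in libraries labelled β-Mettl3-KO and 4771 to 5028 in flox/flox libraries.

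The stretch of DNA before the start of each gene is shown because 5 of the 6 genes rose and because promoters of several granin genes are known to carry a cyclic AMP response element (CRE), the palindrome TGACGTCA or its core TGACG. RefSeq promoter sequences of build GRCm38.p6 matched 5 of the 6 genes, Vgf being the exception. The 250 bases before each RefSeq start were searched on both strands. Capitals mark the motif. The sequences run 5′ to 3′ along the gene and cover chr12:102554841-102554940 (plus strand) for Chga, chr2:132781559-132781588 (plus) for Chgb, chr1:79440076-79440105 (minus) for Scg2, chr9:75684057-75684156 (minus) for Scg3 and chr2:113829192-113829291 (minus) for Scg5. Those of Chgb and Scg2 are limited to 30 bases, since GENCODE places a longer first exon over them.
Chga: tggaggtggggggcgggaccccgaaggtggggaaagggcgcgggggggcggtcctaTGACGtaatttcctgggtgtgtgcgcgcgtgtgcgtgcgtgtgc
Chgb: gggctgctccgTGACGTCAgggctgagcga
Scg2: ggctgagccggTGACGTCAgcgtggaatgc
Scg3: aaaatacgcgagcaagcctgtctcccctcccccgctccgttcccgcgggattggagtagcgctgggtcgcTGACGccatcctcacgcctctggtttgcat
Scg5: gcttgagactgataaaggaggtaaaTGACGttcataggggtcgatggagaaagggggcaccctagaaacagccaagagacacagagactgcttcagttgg

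The full palindrome was found in Chgb, 65 to 72 bases before the RefSeq start, and in Scg2, 61 to 68 bases before it. Of all 32851 promoter windows of 250 bases, 1.55% held it. Chga had the core followed by TAA, 40 to 44 bases before the start, Scg3 had it 26 to 30 bases before the start and Scg5 171 to 175 bases before it. The core, counted on either strand and also inside the palindrome, was thus in 5 of 5 windows, against 17.8% of all windows, and the share within 100 bases of a start was 10.5%. A match in the letters is a description of the sequence and not of binding.

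The make-up of the family differed between the groups. Chga gave 47.1%, 53.9% and 48.8% of the summed granin FPKM in labelled-knockout replicates 1, 2 and 3, against 59.5%, 58.4% and 59.3% in flox/flox replicates. Its share was lower in each library labelled β-Mettl3-KO, with a mean difference of -9.17 percentage points (means 49.9% and 59.1%). Scg2 gave 25.2% to 28.0% against 23.1% to 24.6%, Chgb 6.78% to 9.11% against 5.34% to 5.65%, and Scg5 7.91% to 8.99% against 5.77% to 5.88%. Shares of Scg3 overlapped, at 6.003% to 6.53% in libraries labelled β-Mettl3-KO and 5.39% to 6.02% in flox/flox libraries (exact two-sided permutation p = 0.20). For the other 5 genes the groups did not overlap, and the exact two-sided permutation p was 0.10, the smallest that 3 libraries against 3 allow. Shares and ratios within a library do not depend on a scaling factor between libraries.

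**Figure D2:**
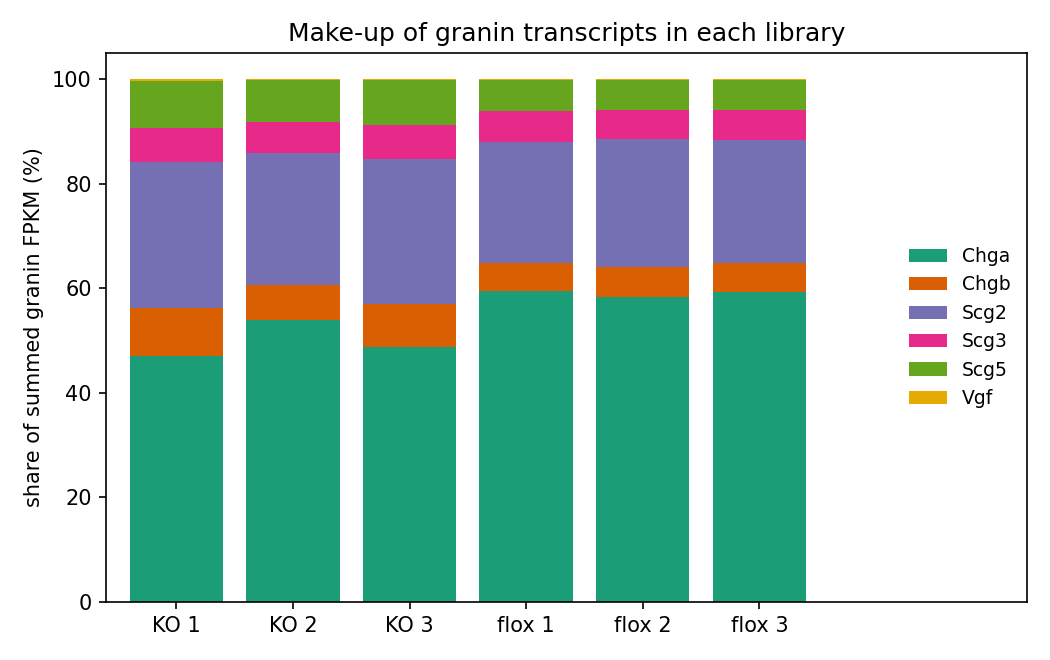
Share of each granin gene in the summed FPKM of the 6 genes, in percent, for each library. Chga takes 47.1% to 53.9% in the libraries labelled β-Mettl3-KO (KO) and 58.4% to 59.5% in the flox/flox libraries (flox), and Vgf is a sliver at the top of each bar.

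Ratios of one granin to another set the members against each other. Of 15 pairs, 13 had ratios that did not overlap between the groups (exact two-sided permutation p = 0.10 each, adjusted over the pairs 0.115). The share of such pairs among other genes was not computed, so the count is a description only. The 15 pairs are built from 6 genes and are not independent of each other. Chga fell relative to each of the other 5 genes in this sense, by 0.79 on the log2 scale against Chgb (mean log2 ratio 2.64 in libraries labelled β-Mettl3-KO and 3.43 in flox/flox libraries) and by 1.21 against Vgf (7.65 and 8.86). The 2 pairs that overlapped were Chgb with Scg5, whose log2 ratio averaged -0.08 in libraries labelled β-Mettl3-KO and -0.09 in flox/flox libraries (exact p = 0.90), and Scg2 with Scg3, at 2.09 and 2.05 (exact p = 0.70). These pairs kept their proportions more closely than any other, with log2 ratios that differed by 0.004 and 0.04 between the group means.

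Within the libraries labelled β-Mettl3-KO, replicate 1 was highest and replicate 2 lowest for all 6 granins. Relative to the flox/flox mean, Vgf stood at log2 1.94, 1.09 and 1.52 in replicates 1, 2 and 3, Chgb at 1.49, 0.67 and 1.12, and Chga at 0.43, 0.23 and 0.26. Coefficients of variation were 7.77% for Chga and 17.8% to 29.1% for the other 5 genes in that group, against 2.73% to 8.94% in flox/flox libraries. The enterocyte markers ran in the opposite order, at 489, 2129 and 1188 CPM in replicates 1, 2 and 3, as did the lymphocyte markers given above, and their part in the granin differences was not tested. Labelled-knockout replicate 1, where all 6 granins were highest, was also fitted as the only library of its group. Log2 differences were then 0.43 for Chga, 1.49 for Chgb, 1.00 for Scg2, 0.95 for Scg3, 1.38 for Scg5 and 1.88 for Vgf. With 1 library that group has no spread of its own, so no calls are given. With replicate 1 left out instead, all 5 calls held at log2 differences of 0.57 for Scg3 to 1.26 for Vgf.

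**Figure D3:**
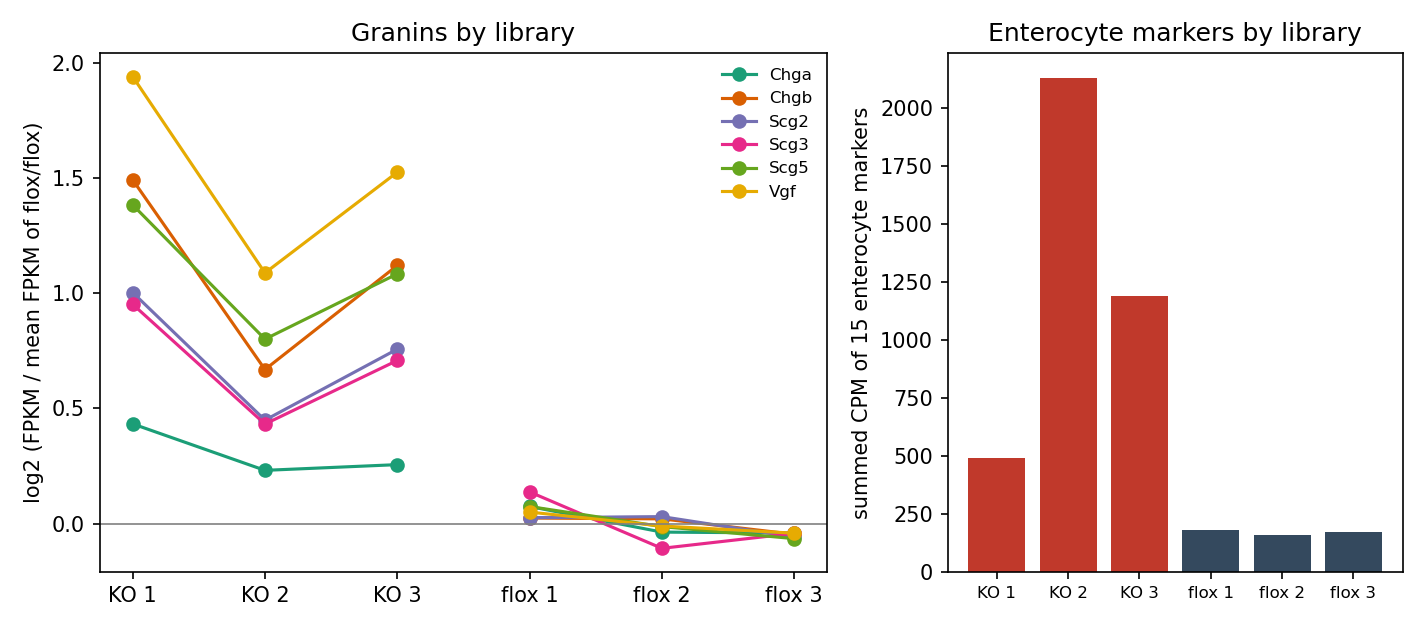
Left, log2 of each granin's FPKM over its flox/flox mean in each library, with lines joining values of the same gene within a group. Right, the summed CPM of 15 enterocyte markers. Granins are highest and enterocyte markers lowest in labelled-knockout replicate 1 (KO 1), and the reverse holds in replicate 2 of that group.

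Labelled-knockout replicate 3 lay between replicates 1 and 2 for all 6 granins, within 5.36% of their mean for Chga (4675 against 4940.3 FPKM) and closer for the others. Over all tested genes it lay between them for 51.3%, and flox/flox replicate 3 lay between its fellows for 41.7% of tested genes and 1 of the 6 granins. Animals are not named in the labels of the 6 samples, and p-values reflect only how far libraries differ, which may be technical. Without replicate 3 of both groups, 0 of the 6 granins passed limma after adjustment, and 4 had an unadjusted p under 0.05, with adjusted p from 0.0583 for Vgf to 0.191 for Scg2 among the 5 that had passed, while their log2 differences were 0.68 to 1.44. Without labelled-knockout replicate 3 alone, 3 granins passed, Chgb, Scg5 and Vgf.

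Other cells that make granins were looked for with marker lists. Lmx1a, a factor of enterochromaffin cells of the gut, was at 0 in all 6 libraries, and Tph1, their serotonin-synthesis enzyme, was at 0, 0.0249 and 0.0156 FPKM in labelled-knockout replicates 1 to 3 and at 0 in flox/flox libraries. Of 7 tested enteroendocrine markers out of 16 listed, 2 rose, 0 fell and 5 did not pass. Gast, among those that rose, and Gip, among those that did not pass, passed the filter only through the labelled-knockout group. Their own calls are therefore not given. The list summed to 1157 to 1279 CPM in libraries labelled β-Mettl3-KO and 818 to 983 CPM in flox/flox libraries. On the CPM scale the median of all genes was 0.36 higher (log2) in the libraries labelled β-Mettl3-KO. The most abundant gene of the list, Pyy, which islets also express, was at 1588 ± 117 and 1584 ± 172 FPKM (SD, n = 3 each). Neurog3, which also marks endocrine progenitors, rose by 1.75 ± 0.08 (SE, limma adjusted p = 7.47e-05). Gast, the gastrin gene, was at 4.17, 1.78 and 2.41 FPKM in libraries labelled β-Mettl3-KO, against 0.431, 1.20 and 0.439 FPKM in flox/flox libraries. Gip, the incretin gene of K cells, was named here after its values were seen. It was at 0.279, 4.39 and 1.47 FPKM in replicates 1, 2 and 3 labelled β-Mettl3-KO and at 0 in flox/flox libraries. The part of such cells in the granin differences was not tested.

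Neuron and chromaffin markers spanned a wide range of levels. Dbh and Pnmt, enzymes of noradrenaline and adrenaline synthesis, did not exceed 0.057 FPKM in any library. Of 6 tested genes out of 13 listed, Th, tyrosine hydroxylase, fell by 1.66 ± 0.08 (SE, limma adjusted p = 7.47e-05), Ret rose by 0.74 ± 0.15 (adjusted p = 0.0109) and 4 did not pass. Ret was the most abundant of them over both groups, at 21.9 ± 3.18 and 12.9 ± 2.02 FPKM (SD, n = 3 each). Prph, listed but below the filter, was at 1.92, 0.947 and 1.52 FPKM in libraries labelled β-Mettl3-KO, against 0.331, 0.277 and 0.337 FPKM. The list summed to 240.4 to 315 CPM in libraries labelled β-Mettl3-KO and 172 to 191 CPM in flox/flox libraries. On the CPM scale the median of all genes was 0.36 higher (log2) in the libraries labelled β-Mettl3-KO. The part of neurons and chromaffin cells in the granin differences was not tested.

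Among islet cells, α-cell markers in the same libraries ran in the order of the granins. The list of 13 summed to 21474 CPM in replicate 1, 14685 CPM in replicate 2 and 18091 CPM in replicate 3 labelled β-Mettl3-KO, against 13138, 8896 and 11757 CPM in flox/flox libraries. CPM is relative to all reads of a library, and on that scale the median of all genes was 0.36 higher (log2) in the libraries labelled β-Mettl3-KO. In the fit 3 of 11 tested α-cell markers rose, 0 fell and 8 did not pass. Tmem27 rose by 1.85 ± 0.14 and Gc by 0.67 ± 0.10 (SE, limma adjusted p = 0.000322 and 0.00323). Gcg, the most abundant of the list, was at 10005, 6367 and 8061 FPKM in libraries labelled β-Mettl3-KO, against 8882, 5627 and 7682 FPKM in flox/flox libraries, and did not pass (0.14 ± 0.25, adjusted p = 0.702). The part of cell numbers in the granin differences was not tested.

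The other precursors counted with granins, or stored with them, were a list of 4 genes. Cartpt, the CART peptide precursor, was at 3.09 ± 1.47 FPKM in libraries labelled β-Mettl3-KO, against 0.811 ± 0.066 FPKM in flox/flox libraries (SD, n = 3 each). It passed the filter only through the labelled-knockout group, so its call is not given. Gnas, whose locus also encodes the granin-like protein Nesp55, rose by 0.45 ± 0.10 (SE, limma adjusted p = 0.0146). Pcsk1n, the proSAAS precursor and inhibitor of prohormone convertase 1, was at 592 ± 128 and 418 ± 75.05 FPKM and did not pass (0.50 ± 0.19, adjusted p = 0.0907), nor did Nucb2. Gnas lost its call without flox/flox replicate 3 (adjusted p = 0.0539).

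Enzymes that process granule cargo were mixed, with 4 of 8 higher, 1 lower, 3 not passing and a median log2 difference of 0.32. Pam, which amidates peptide ends, rose by 1.11 ± 0.15 (SE, limma adjusted p = 0.00235), at 83.5 ± 17.1 FPKM in libraries labelled β-Mettl3-KO and 37.8 ± 0.947 FPKM in flox/flox libraries (SD, n = 3 each). Furin, a Golgi convertase, rose by 0.56 ± 0.07 (adjusted p = 0.00192), and Pcsk4 fell by 1.29 ± 0.14 (adjusted p = 0.00131). Pcsk1, which starts the cutting of proinsulin, rose by 0.63 ± 0.15 (adjusted p = 0.0209), a call lost without labelled-knockout replicate 3 or flox/flox replicate 1 or 3 (adjusted p = 0.0646 to 0.0731). Cpd, carboxypeptidase D, lost its call in the same 3 fits (adjusted p = 0.0539 to 0.0931), so the list had 2 higher calls in each, and also 2 with no filter. Pcsk2, the partner of the Scg5 protein and chosen here after its value was seen, was at 363 ± 49.5 and 359 ± 12.4 FPKM, with a log2 difference of 0.01 ± 0.11 (adjusted p = 0.958). Scg5 thus stood at 834 FPKM beside 363 FPKM of Pcsk2 in libraries labelled β-Mettl3-KO, and at 387 FPKM beside 359 FPKM in flox/flox libraries.

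Genes of granule membranes and granule formation did not follow the granins. Of 14 tested membrane genes out of 16, 3 rose, 4 fell and 7 did not pass, with a median of -0.14. The list had 1 higher call without labelled-knockout replicate 1 or 3 or flox/flox replicate 1. Sytl4, a granule docking protein, fell by 1.72 ± 0.09 (SE, limma adjusted p = 8.56e-05), Slc30a8, the granule zinc transporter, fell by 0.91 ± 0.09 (adjusted p = 0.000982), and Ptprn2, the granule protein phogrin, rose by 0.82 ± 0.09 (adjusted p = 0.00119). Of 24 granule biogenesis genes 1 rose, 11 fell and 12 did not pass, with a median of -0.25. Baiap3 fell by 1.27 ± 0.11 (adjusted p = 0.000462), Ica1l by 0.62 ± 0.11 (adjusted p = 0.0064), Pick1, which binds lipids of budding granules, by 0.61 ± 0.07 (adjusted p = 0.00168) and Arfip2 by 0.54 ± 0.07 (adjusted p = 0.00187). Scaled to each library's own reads, where the median of all genes moved to 0.36, the biogenesis list had 7 higher and 2 lower calls and its median was 0.24 below that of all genes, against 0.25 below in the fit given here. Calls of Ica1l and Arfip2 were lost on that scale (adjusted p = 0.0638 and 0.142). Membrane genes had 8 higher and 2 lower calls there, processing enzymes 6 and 1, and the 4 precursors, Cartpt among them, 4 and 0. In the fit given here, the biogenesis list had 7 lower calls without labelled-knockout replicate 3 and 1 without replicate 3 of both groups.

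**Figure D4:**
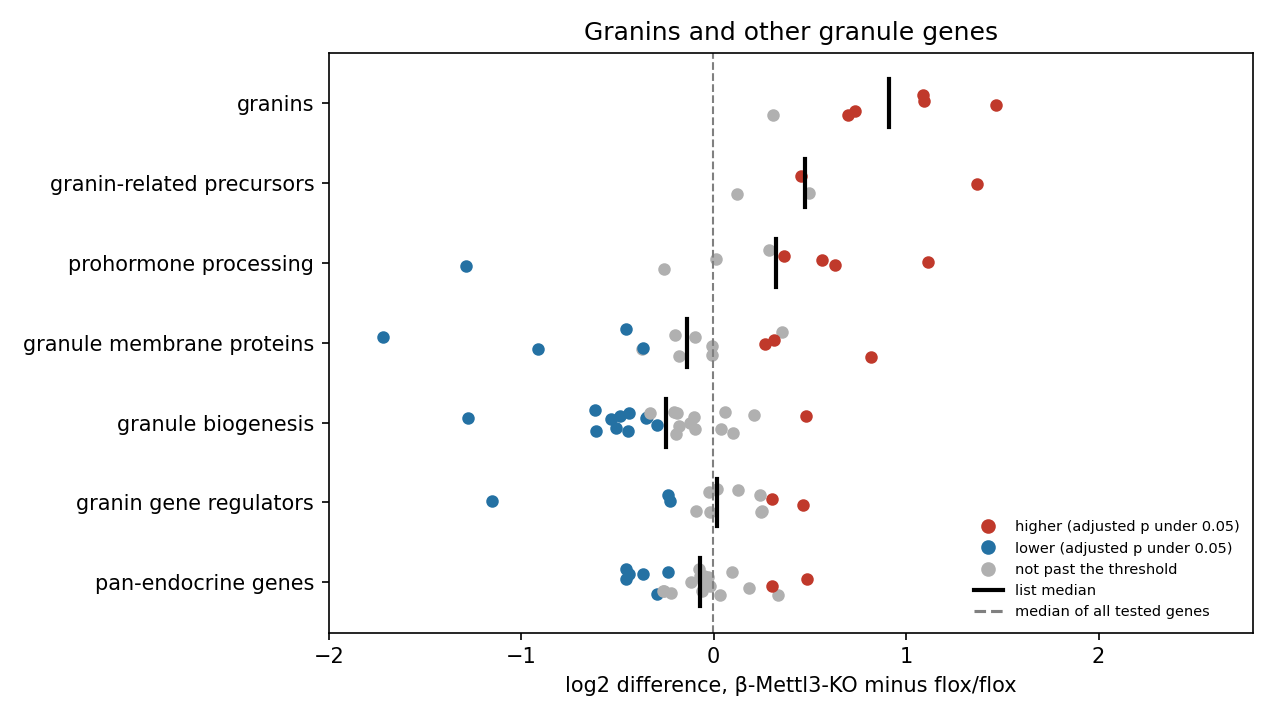
Log2 difference (β-Mettl3-KO minus flox/flox) of each tested gene in the granin family and 6 lists of related genes, coloured by whether the gene passed, with black bars at list medians and a dashed line at the median of all tested genes. The granin median of 0.91 lies right of the 6 list medians, which run from -0.25 to 0.47. The list of granin-related precursors includes Cartpt, which passed the filter only through the labelled-knockout group.

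Genes shared by most islet endocrine cells were a list of 24. Of 23 tested, 2 rose, 6 fell and 15 did not pass, with a median log2 difference of -0.07. Over all tested genes, 16.9% passed as higher, 17.2% as lower and 34.0% in either direction. Rfx6, an endocrine transcription factor, rose by 0.49 ± 0.06 (SE, limma adjusted p = 0.00227), while Pax6 fell by 0.46 ± 0.08 and the enolase gene Eno2 by 0.46 ± 0.08 (adjusted p = 0.00595 and 0.00701). Scaled to own reads, both lower calls were lost (adjusted p = 0.508 and 0.475), and the list had 12 higher and 0 lower calls, with a median 0.04 below that of all genes. In the fit given here, it had 3 lower calls without replicate 3 of either group. With libraries scaled to these genes, all 6 granins passed, at log2 differences of 0.40 for Chga to 1.55 for Vgf. Among 13 tested regulators of granin or granule genes out of 14 listed, 2 rose, 3 fell and 8 did not pass, with a median of 0.02. Rcor2, a corepressor that works with REST, fell by 1.15 ± 0.10 (adjusted p = 0.00062), and the factor Sp1 rose by 0.46 ± 0.07 (adjusted p = 0.00309). Rest itself, the listed gene below the filter, stood higher in each library labelled β-Mettl3-KO. It was at 1.35, 1.01 and 1.23 FPKM there, against 0.659, 0.824 and 0.606 FPKM in flox/flox libraries. The part of regulators in the granin differences was not tested. Creb1, which binds CREs, was at 4.55 ± 0.368 and 3.75 ± 0.292 FPKM and did not pass (0.25 ± 0.09, adjusted p = 0.0809). Scaled to own reads, 11 regulators were higher and 1 lower, and without replicate 3 of either group 1 was lower.

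Against the insulin genes and Iapp, granins took a larger place, while ratios to Gcg overlapped between the groups. Ratios to Sst and Ppy were not computed. The 6 genes together summed to 11231, 8522 and 9585 FPKM in libraries labelled β-Mettl3-KO, against 6926, 6535 and 6414 FPKM in flox/flox libraries. For each 100 FPKM of Ins1 plus Ins2 there were 10.6, 8.65 and 9.65 FPKM of granins in libraries labelled β-Mettl3-KO, against 2.31, 2.74 and 2.41 in flox/flox libraries, so the groups were far apart. Both parts of that ratio moved. The labelled-knockout mean was 0.378 times the flox/flox mean for Ins1 plus Ins2 and 1.48 times for the granin sum. Relative to Iapp, the amyloid peptide gene, the sum was 0.617, 0.679 and 0.621 times its FPKM, against 0.394, 0.391 and 0.417 times. Relative to Gcg it was 1.12, 1.34 and 1.19 times, against 0.78, 1.161 and 0.835 times, and those groups overlapped. The granins took 2.59% to 3.28% of all reads in the libraries labelled β-Mettl3-KO and 1.49% to 1.56% in the flox/flox libraries. Relative to all reads, the median of all genes was also 0.36 higher (log2) in the libraries labelled β-Mettl3-KO.

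For each granin the 3 genes with the most similar profile over the 6 libraries were taken from 7065 genes with a mean of at least 5 FPKM, by the root mean square distance between log2 values centred on each gene's mean. Scg5 was the second nearest gene to Chgb, at a distance of 0.08, after Txnip (0.07) and just ahead of Pam (0.08), and Chgb was the eighth nearest to Scg5. The nearest to Scg5 were Chst12, Pigk and Glb1 (0.05 to 0.06). Scg2 and Scg3 had rank 10 in each other's lists, at 0.08. Gemin6, Gusb and Rnf113a2 were nearest to Scg2 (0.04 to 0.07), and Tpst1, Zfp622 and Pgrmc1 to Scg3 (0.02 to 0.05). Chga was nearest to Rab9 and the ribosomal protein genes Rps3 and Rps26 (0.02 each), and its distance to the other granins was 0.22 to 0.61. Vgf was nearest to Basp1, Arxes2 and Chpf (0.10 to 0.13).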

How the data were processed

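RNA of whole islets was sequenced in 6 libraries, grouped by titles and genotype labels. The submitters' processing notes name GRCm38.p6 as the build and, as tools, DESeq2 1.16.1, HISAT2 2.0.5 and featureCounts 1.5.0-p3. Their roles, settings and use of strand were not stated. The authors deposited FPKM values for 54556 genes with gene lengths. Multiplied by gene length, the values of a library were multiples of a common step (100% within 0.1 of a whole number), and the multiples were taken as reads. The divisor behind the deposited values followed median-of-ratios factors, so the values set the typical gene to no change. No per-sample column was left out (0 columns).

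The test was limma 3.58.1 (R 4.3.3), run with lmFit and with eBayes allowing a trend of variance with level, on log2(FPKM + 0.5) of genes averaging 1 FPKM or more. It was two-sided, and a gene passed when its adjusted p (Benjamini-Hochberg) was under 0.05. Differences on that scale understate changes of low genes. The fit was tested on simulated data. That simulation gave both groups the same spread, so it does not check the fit at the unequal spreads of the granins. Alternatives changed pseudocount, filter, scaling, variance trend, replicate block and libraries. No library was a repeat of another: within groups, chi-square over its degrees of freedom was 7.00 to 32.6, where pure counting error gives about 1. Members, 15 gene lists and tests were chosen with earlier results of these data known. Named genes are the members, Mettl3, per list the 2 to 4 passing genes of largest difference, the most abundant gene of marker lists, and the 3 nearest profiles. Outside this rule, after their values were seen, Pcsk1n, Nucb2, Pcsk2, Cpd, Creb1, Rest, Gip, Lmx1a, Tph1, Dbh, Pnmt, Prph, Anpep, Vil1 and Alpi were named, and Ins1, Ins2 and Iapp serve as denominators or checks. Of 13 tested β-cell and 12 endothelial markers 12 each fell. Of 4 δ- and PP-cell markers 1 fell, a call held without labelled-knockout replicate 1 alone and lost without any other library. Of 14 acinar markers 11 fell. Without labelled-knockout replicate 2, labelled-knockout replicate 3 or flox/flox replicate 3, limma called 0 of them (10, 11 and 13 at an unadjusted p under 0.05), and 1 without flox/flox replicate 2 or with the replicate block. Enterocyte and lymphocyte markers are given as summed CPM without calls, since some passed the filter only through the group where they were high. Alpi, Cartpt, Gast and Gip, which are such genes, are given by their FPKM, and Anpep and Vil1 are named for their reads.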

Additional observations from a re-analysis of the deposited data

How the results depend on the processing

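All 6 granins kept a positive difference in each of 15 planned and 3 added alternatives. With no filter 3 passed, since log2 differences of Scg2 (0.74) and Scg3 (0.70) no longer did. Chga passed with own-read scaling (0.71), quantile normalization (1.23), no variance trend (0.31) and pan-endocrine scaling (0.40). Leaving out 1 library gave 3 to 5 passing granins, with log2 differences of 0.60 to 0.88 for Scg2 and 0.57 to 0.83 for Scg3. Of alternatives chosen after seeing the data, leaving out labelled-knockout replicates 2 and 3 put Scg2 at a log2 difference of 1.003. That fit assumes that the 1 library left varies like the others, so no calls are given. Leaving out replicate 3 of both groups left 0 passing granins by limma. Log2 differences were then 1.06 for Chgb, 0.70 for Scg2, 0.68 for Scg3, 1.06 for Scg5 and 1.44 for Vgf. All of these but Scg2 had an unadjusted limma p under 0.05. That fit also has fewer libraries, and the cause of the lost calls was not tested.

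Over all genes, 2446 were higher and 2489 lower. A filter at 5 FPKM, which tests fewer genes, gave 1247 higher, own-read scaling 7636 higher and 709 lower, and pan-endocrine scaling 1439 lower. Leaving out 1 library gave 1310 to 2106 higher and 1403 to 2142 lower, leaving out labelled-knockout replicates 2 and 3 gave 579 and 553, and leaving out replicate 3 of both groups 507 and 419. Same-numbered libraries did not deviate together (correlations of 0.081, 0.075 and 0.042), so the numbers were not taken as pairs, although each library correlated best with its own number, a hint from the data and not from the design. With the replicate block 5 granins passed (Vgf 1.46, Chga adjusted p = 0.0514), with 2313 higher and 2346 lower calls over all genes. Differences in make-up kept their direction in shares of reads, where the groups no longer overlapped for Scg3 (exact permutation p = 0.10). The depth did not limit the granins, the lowest count being 359 reads for Vgf.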

Other observations

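The sequence GGACT, the commonest core of the sites that METTL3 methylates, was counted in the longest GENCODE protein-coding transcript of each tested gene. Scg2 had 0 such sites in 2515 bases, Chgb 1 in 2740 bases, Vgf 1 in 2834 bases and Chga 1 in 1883 bases. Scg3 had 2 in 2384 bases and Scg5 1 in 1208 bases. Per kilobase this came to 0 for Scg2, 0.353 for Vgf, 0.365 for Chgb, 0.531 for Chga, 0.828 for Scg5 and 0.839 for Scg3, all below the median of 1.05 over 11751 tested genes with a transcript. Genes that passed as higher, those that passed as lower and those that did not pass had medians of 1.09, 1.11 and 1.03 sites per kilobase. These counts describe letters in annotated transcripts, and methylation was not measured in these files.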
